A study of Mus musculus with 3 samples.

Results

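The MHC class I presentation genes examined here are H2-K1, H2-D1, B2m, Tap1, Tap2, Tapbp, Nlrc5, Psmb8 and Psmb9. They were chosen by symbol, and all 9 were found among the 31053 genes listed for each run. Their RNA was measured in 19791 single cells from mouse hippocampus, over 3 runs of droplet-based sequencing, all from the same group. Every mouse had the genotype Cx3cr1CreERT2/+; Rosa26tdTomato/+; NestinTK-eGFP/+ and had received tamoxifen at 100 mg/kg on 4 days, so that cells in which the Cx3cr1 locus drives the recombinase became tdTomato-positive. The runs together hold 12 animals, 6 male and 6 female, and neither the age of the animals nor their assignment to runs is given in the sources used here. There is no untreated group or other genotype, and each comparison sets populations of cells of the same run against each other.

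MHC class I molecules display peptides from inside a cell to CD8 T cells. A polymorphic heavy chain (H2-K1 and H2-D1 in the mouse) pairs with the small invariant chain beta-2 microglobulin (B2m). Peptides are cut by the proteasome, in which the interferon-inducible subunits Psmb8 and Psmb9 replace standard catalytic subunits, are carried into the endoplasmic reticulum by the transporter Tap1-Tap2, and are loaded with the help of tapasin (Tapbp). Nlrc5 is a transcriptional coactivator that acts on class I promoters through a conserved group of boxes bound by RFX, CREB or ATF, and NF-Y factors. Microglia in the healthy brain are known for low class I expression that rises with interferon.

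In GRCm38, 7 of the 9 genes lie on chromosome 17, in the MHC region. Psmb9 (chr17:34181987-34187764, minus strand), Tap1 (chr17:34187553-34197225, plus strand), Psmb8 (chr17:34197721-34201454, plus) and Tap2 (chr17:34203527-34216321, plus) are neighbours, and the Psmb9 and Tap1 genes overlap head to head by 212 bases. H2-K1 is at chr17:33996017-34000347 (minus), Tapbp at chr17:33915899-33929292 (plus) and H2-D1 at chr17:35262730-35267499 (plus). B2m is at chr2:122147686-122153083 and Nlrc5 at chr8:94434356-94527272, both on the plus strand. All 9 are annotated as protein-coding, and each span covers the whole gene with its introns.

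Promoter windows of 300 bases, from 250 before to 50 after an annotated start, were found in the RefSeq table (GRCm38.p6) for 7 of the 9 genes. The stretches before the start are shown for the heavy chains and B2m, whose RNA moved together in the microglial states described here, and for Tap1, whose window shares 275 bases with that of Psmb9. Capitals mark matches to the motifs searched on both strands. These were a form of the interferon-stimulated response element (GAAA repeated after any 2 bases), TGACG (a core of the CREB/ATF box), CCAAT (the NF-Y box, ATTGG on the other strand) and the run of 10 bases that is the first capital block in both H2-K1 and H2-D1. TTCNNNGAA, a form of the GAS element, was searched too and has no match in the 4 stretches shown. H2-K1 is read from the minus strand of chr17:34000348-34000507, H2-D1 from chr17:35262934-35263093, B2m from chr2:122147527-122147686 and Tap1 from chr17:34187306-34187555.
H2-K1: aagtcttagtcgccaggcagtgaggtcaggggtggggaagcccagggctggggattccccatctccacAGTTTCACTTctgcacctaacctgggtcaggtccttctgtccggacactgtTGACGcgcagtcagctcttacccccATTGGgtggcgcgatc
H2-D1: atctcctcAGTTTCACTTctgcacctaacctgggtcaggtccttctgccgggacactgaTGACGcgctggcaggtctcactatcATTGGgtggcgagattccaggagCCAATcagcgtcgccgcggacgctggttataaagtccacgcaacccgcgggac
B2m: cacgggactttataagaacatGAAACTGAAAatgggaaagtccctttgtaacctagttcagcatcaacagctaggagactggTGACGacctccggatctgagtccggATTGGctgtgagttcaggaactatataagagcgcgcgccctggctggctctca
Tap1: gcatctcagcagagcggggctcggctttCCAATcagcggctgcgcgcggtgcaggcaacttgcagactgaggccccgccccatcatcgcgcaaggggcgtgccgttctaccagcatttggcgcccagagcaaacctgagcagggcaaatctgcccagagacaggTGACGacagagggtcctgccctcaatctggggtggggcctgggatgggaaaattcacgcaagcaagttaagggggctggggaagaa

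In H2-K1, H2-D1 and B2m, TGACG was followed by ATTGG starting 25 bases further on. That arrangement was searched after it had been seen in these 3 windows, and 0.0944% of the 32851 windows in the table held it. The shared run of 10 bases, also added after the windows had been seen, was present in H2-K1 and H2-D1 and in 0.14% of all windows. The response element form was found in B2m alone among the 7 (3.44% of all windows), TTCNNNGAA in Psmb8 alone (8.30%), TGACG in 5 of 7 (20.8%) and CCAAT in 6 of 7 (37.4%). Other forms of the response element were not searched, so windows without a match, those of H2-K1 and H2-D1 included, may hold one. For TGACG and CCAAT, the matches of Tap1 and Psmb9 are the same bases in the stretch their windows share, so these counts hold 1 site more than once. These matches describe the letters in the windows, and no binding was measured.

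The runs held 6226 to 7255 barcodes and 24225612 to 34140879 UMIs (unique molecular identifiers, which tag single RNA molecules), and 6078 to 6993 cells per run passed the filters with medians of 3438 to 4425 UMIs. The counts of each pair of runs differed far beyond sampling noise (chi-square per degree of freedom 31.6 to 68.1), and 26 barcodes occurred in more than 1 run. The labels do not say whether the runs hold different animals, and how far the spread between runs is technical was not tested. The tests mostly gave all genes 1 shared estimate of spread. A p-value or standard error (SE) here therefore hardly reflects how far the runs of that gene differed. Cells were assigned by counting detected markers, none of which is a class I presentation gene. Microglia were cells with at least 3 of 8 microglial markers such as P2ry12 and Tmem119. Among them, interferon-responsive cells had at least 4 of 12 interferon-induced markers such as Ifit3, Isg15 and Rsad2 (68, 37 and 43 cells in runs 1, 2 and 3), and disease-associated cells had at least 3 of 9 markers such as Spp1, Lpl and Cst7 (69, 56 and 33). Ccl3/Ccl4-high microglia had at least 2000 CPM of those chemokines together (UMIs scaled to the same total, written CPM) (23, 29 and 38), and border-associated macrophages, the macrophages of meninges and vessels, had at least 3 of 8 markers such as Mrc1, Pf4 and Lyve1 (72, 36 and 57). The 18847 microglia past no state gate are called other microglia. Their summed microglial markers reached 14449 to 18340 CPM, against 3319 to 9227 CPM in border-associated macrophages.

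All 9 genes were higher in interferon-responsive microglia than in other microglia, and for each the 3 runs of the first population lay above the 3 runs of the second. The run ranges of 21 of 43 further genes listed for the class I pathway were apart as well, and the share over all genes was not counted. Tap1 rose 3.47-fold, H2-K1 2.32-fold and H2-D1 1.97-fold, and B2m, Tap2, Tapbp, Psmb8 and Psmb9 between 1.33- and 1.85-fold. Nlrc5 rose on very few counts, and it passed the filter on low counts only through its interferon-responsive sums. The test was edgeR's quasi-likelihood test on the UMIs of each population added up within each run. Runs entered as a blocking factor, and p-values carry the Benjamini-Hochberg adjustment for every gene in the fit. Of 11252 genes tested, 255 passed an adjusted p of 0.05 (2.27%), and 1.83% were higher and 0.435% lower. The median log2 change was 0.89 over the 9 genes and -0.05 over all genes tested.

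The heavy chain H2-K1 was at 815, 1014 and 780.1 CPM in the interferon-responsive cells of runs 1, 2 and 3, against 333, 439 and 360.3 CPM in other microglia. The lowest interferon-responsive run was well above the highest run of other microglia, and run 2 was the highest in both populations. The log2 change was 1.21 ± 0.08 (SE, edgeR adjusted p = 5.35e-51). H2-D1, the second classical heavy chain of these mice, was at 683, 1058 and 931 CPM against 425, 437 and 431 CPM. Other microglia were close to each other across runs, while run 1 of the interferon-responsive cells was the lowest of its group. The log2 change was 0.98 ± 0.08 (SE, edgeR adjusted p = 4.42e-33). B2m, which every class I heavy chain needs to reach the surface, was at 1834, 1738 and 1645 CPM against 1187, 982 and 1147 CPM. The ranges were apart, and the log2 change of 0.64 ± 0.07 (SE, edgeR adjusted p = 2.17e-20) was smaller than those of the heavy chains.

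Among the genes of peptide transport and loading, Tap1 changed most. It was at 129, 186 and 142 CPM in interferon-responsive cells against 38.2, 52.5 and 39.9 CPM in other microglia, a log2 change of 1.79 ± 0.18 (SE, edgeR adjusted p = 2.97e-21). The log2 ratios of the runs were 1.73, 1.81 and 1.80, so the rise was alike in the 3 runs. Its partner Tap2 was at 139.7, 115 and 89.8 CPM against 80.6, 78.7 and 76.2 CPM, and the interferon-responsive run 3 was only slightly above other microglia. The log2 change of Tap2 was 0.61 ± 0.17 (SE, edgeR adjusted p = 0.0171). Tapbp, the loading chaperone tapasin, was at 225, 244 and 194 CPM against 158, 187 and 162 CPM, a log2 change of 0.41 ± 0.13 (SE, edgeR adjusted p = 0.0489). The calls of Tap2 and Tapbp are weak, since they held in 3 and 2 of 12 alternatives. Without run 1, the edgeR adjusted p was 0.935 for Tap2 and 0.852 for Tapbp. Without run 2, it was 0.0538 and 0.119, and without run 3 that of Tapbp was 0.151.

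The immunoproteasome subunits rose together. Psmb8 was at 341, 455 and 298 CPM against 215, 231 and 199 CPM, a log2 change of 0.72 ± 0.11 (SE, edgeR adjusted p = 8.09e-10). Psmb9 was at 124, 231 and 113 CPM against 81.9, 75.8 and 71.9 CPM, a log2 change of 0.89 ± 0.16 (SE, edgeR adjusted p = 2.53e-06). In both genes run 2 was the highest interferon-responsive run, and without it the log2 change of Psmb9 was 0.63 (edgeR adjusted p = 0.0582). With no run block, neither subunit passed (edgeR adjusted p = 0.108 for Psmb8 and 0.0917 for Psmb9). Nlrc5 was barely detected. It had 4, 1 and 5 UMIs in the interferon-responsive cells of runs 1, 2 and 3 (10.3, 6.41 and 23.6 CPM) against 28, 15 and 21 UMIs in other microglia (0.913, 0.642 and 0.932 CPM). The log2 change was 3.94 ± 0.91 (SE, edgeR adjusted p = 0.00109), and the edgeR adjusted p was 0.307 without run 1 and 0.566 without run 3.

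**Figure D1:**
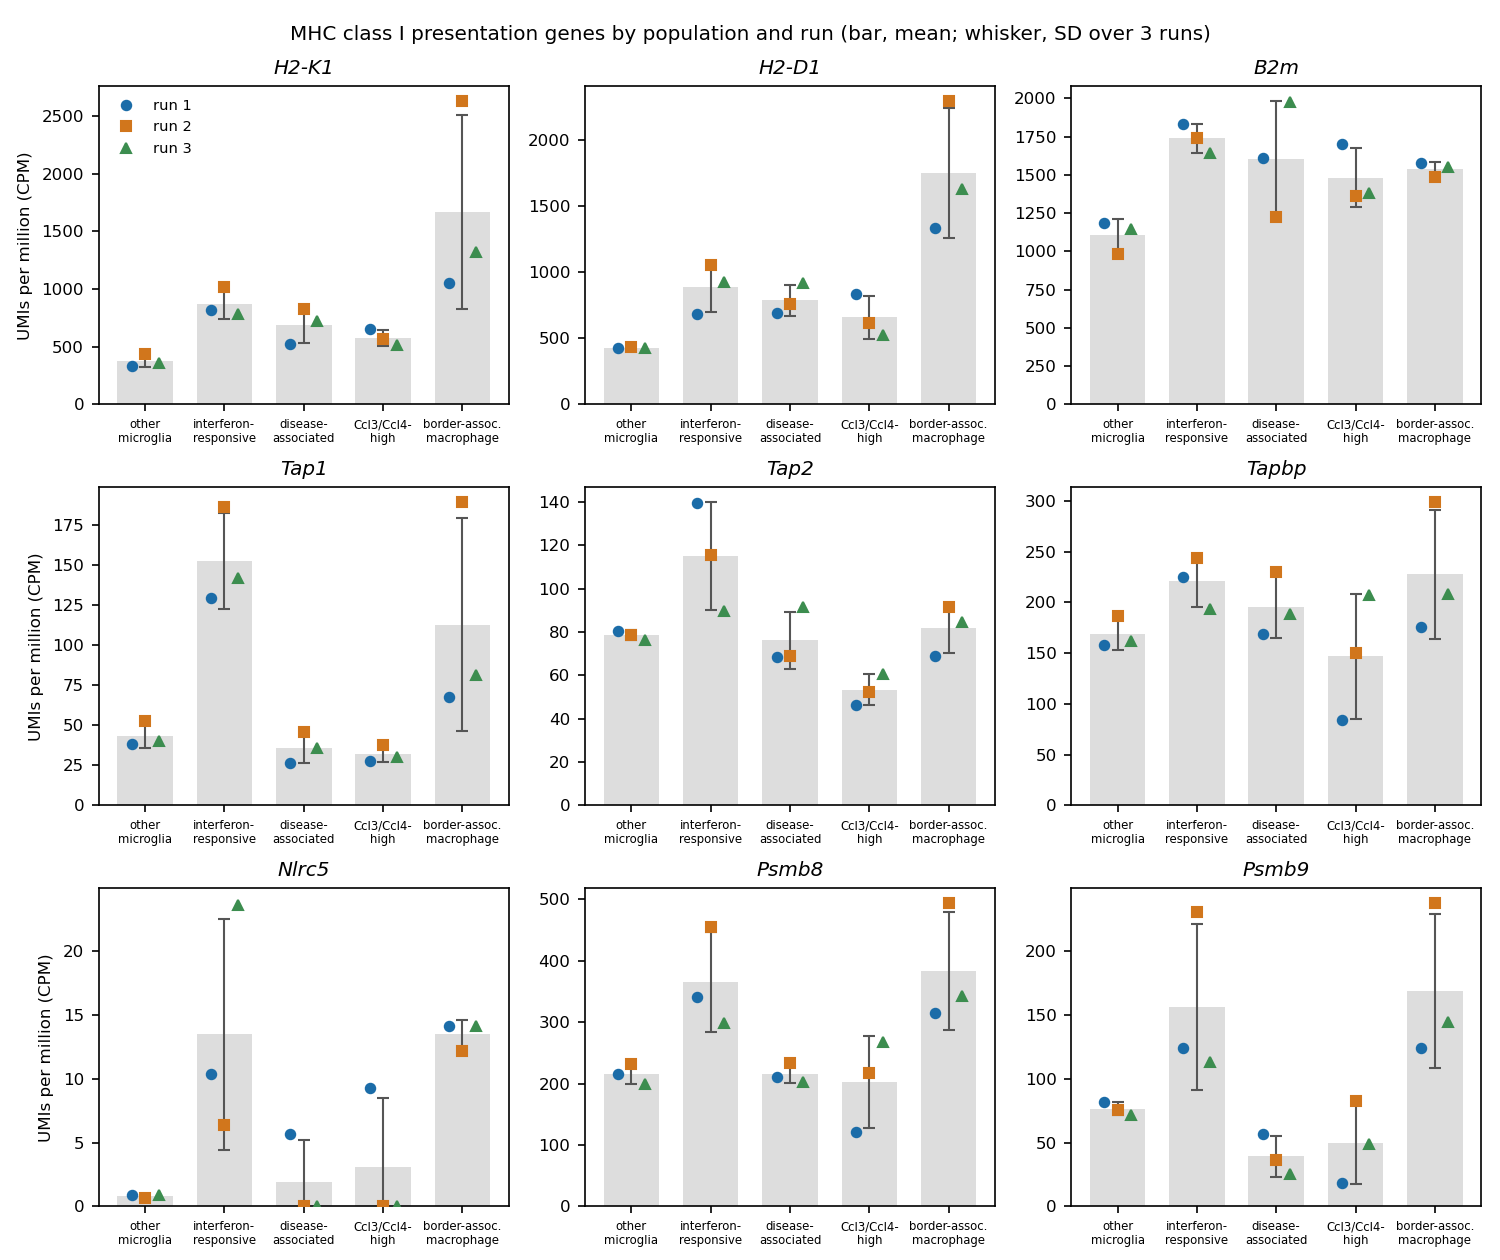
CPM (linear axis from 0) of the 9 genes in 5 populations. Points are runs, bars are means and whiskers are the SD over 3 runs. H2-K1 and H2-D1 are lowest in other microglia and highest in border-associated macrophages. Tap1, Psmb8 and Psmb9 have their highest means in interferon-responsive microglia and border-associated macrophages among these 5.

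The interferon-responsive cells kept microglial markers at 12185 to 15415 CPM, and 6 of the 8 border-associated macrophage markers were at 0 in every run. Class II markers were higher than in other microglia, at 62.1 to 192 against 35.8 to 41.6 CPM, and monocyte markers ranged from 0 to 38.8 against 3.51 to 5.15 CPM, with Ly6c2 at 0 in every run. The part of these markers in the result was not tested. Cells with UMIs of Xist and of Y-linked genes together, a sign of more than 1 cell in a droplet, made up 4.65% to 8.11% of them against 1.68% to 3.39% of all cells. Without such cells 8 of the 9 genes were called, Tap2 being the exception (edgeR adjusted p = 0.0963). With only cells that held no disease-associated marker on both sides, an analysis added after the data had been seen, 6 of 8 genes tested were called. Tap2 and Tapbp were not (edgeR adjusted p = 0.254 and 0.124).

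Of 43 further genes listed for the class I pathway, 14 rose and 1 fell in interferon-responsive microglia (median log2 change 0.13). Over all genes tested, 1.83% rose and 0.435% fell. In peptide supply 3 of 4 rose. These were Psmb10, the remaining immunoproteasome subunit (log2 0.73 ± 0.14), and the proteasome activators Psme1 (0.88 ± 0.11) and Psme2 (0.92 ± 0.13), all with edgeR adjusted p of at most 9.10e-06. Psmb10 did not pass with no run block (edgeR adjusted p = 0.215). Of 10 other class I heavy chain genes, 6 rose, led by the Qa genes H2-Q6 (log2 3.19 ± 0.54) and H2-Q7 (2.97 ± 0.43) and including H2-T23, which encodes Qa-1 (1.07 ± 0.11). Without run 1, H2-Q7 (edgeR adjusted p = 0.0656) and H2-T24 (0.147) did not pass. None of the 3 standard beta subunits and none of the 4 general loading chaperones passed (median log2 changes -0.10 and 0.07). Calr was at 809.8, 789 and 865 CPM against 778, 806 and 810.5 CPM. Among 22 genes of interferon signalling and promoter control, 5 rose, among them Stat2 (log2 2.77 ± 0.22), Irf1, Irf9 and Socs1, and Ifngr1 fell. Irf1 was lower than in other microglia in run 2 (log2 ratio -0.41), although its edgeR adjusted p over the 3 runs was 7.38e-05. The calls of Irf1 and Socs1 are weak, with edgeR adjusted p of 0.742 and 0.973 without run 1, and each was lost in other alternatives too.

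The level of these genes was also read against the number of interferon markers, in microglia thinned to 2000 UMIs so that depth could not set that number. Cells with 0, 1, 2, 3, 4 and 5 or more of the 12 markers numbered 17118, 1457, 174, 62, 33 and 44. The mean of the runs for H2-K1 was 379.5, 446, 686, 839, 787 and 1315 CPM in that order. H2-D1 was already at 549 ± 21.8 CPM (SD, n = 3 runs) with 1 marker against 428 ± 3.02 CPM with none, and the run ranges were 534 to 574 and 425 to 431 CPM. Tap1 was at 43.5, 59.1 and 50.1 CPM with 0, 1 and 2 markers and at 269 ± 98.0 CPM (SD, n = 3 runs) with 5 or more. Psmb9 was at 76.3 CPM with no marker and 251 ± 53.4 CPM with 5 or more, and Psmb8 at 213 and 472 ± 31.6 CPM. With 3 and 4 markers the runs overlapped widely, and Tap1 there rested on 18 and 7 UMIs. In the cells with 5 or more markers every run of H2-K1 was at or above 1062.5 CPM, while the runs of B2m spread up to 2523 CPM and overlapped the cells with no marker (952 to 1168 CPM). Markers were counted here after thinning, so cells past the gate, which was set on all their UMIs, also lie among those with fewer than 4 markers. The interferon-responsive population held 148 cells, without those past several state gates. The marker series keeps the latter, whose mean CPM per cell of H2-K1, on all their UMIs, was 1590, 2627 and 1779 in runs 1, 2 and 3. Their part in the rise was not tested. The values are a description and not a second test.

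**Figure D2:**
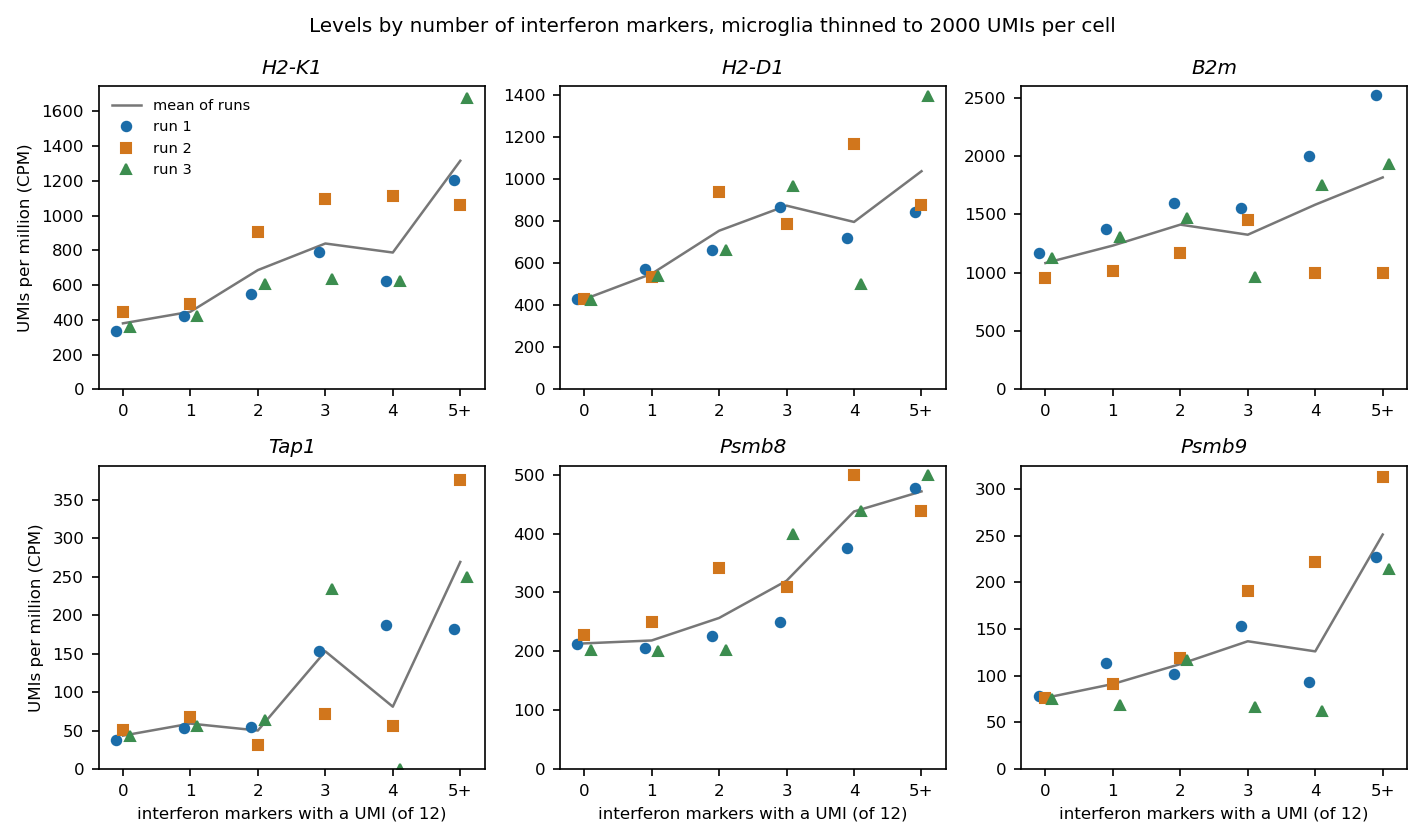
CPM (linear axis from 0) of 6 genes against the number of interferon markers with a UMI. Cells are microglia of all states, thinned to 2000 UMIs per cell. Points are runs and the line joins their means. From 2 markers on, every run of H2-K1 is above the cells without markers, and at 5 or more the runs of Tap1 (182 to 375 CPM) are above all runs with 0 to 2 markers.

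Disease-associated microglia showed another pattern. The heavy chains and B2m were higher than in other microglia by 1.83-, 1.84- and 1.46-fold, Psmb9 was lower at 0.579-fold, and Tap1, Tap2, Tapbp, Nlrc5 and Psmb8 did not pass. Of 11306 genes tested, 1842 passed (16.3%, of which 8.07% higher and 8.23% lower), so calls were much more common than in the interferon comparison. The median log2 change was 0.23 over the 9 genes and -0.08 over all genes. Both comparisons use the same other microglia as their control.

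H2-K1 was at 520.2, 831 and 722 CPM in the disease-associated cells of runs 1, 2 and 3, above the 333 to 439 CPM of other microglia in every run. The log2 change was 0.87 ± 0.09 (SE, edgeR adjusted p = 1.56e-19). H2-D1 was at 689, 762 and 920.1 CPM, and all 3 runs were above the highest run of other microglia (437 CPM), a log2 change of 0.88 ± 0.09 (SE, edgeR adjusted p = 4.96e-21). B2m was at 1612, 1225 and 1977 CPM. Run 2 was the lowest and lay just above the highest run of other microglia (1187 CPM). The log2 change of B2m was 0.54 ± 0.08 (SE, edgeR adjusted p = 2.73e-10), and with no run block its edgeR adjusted p was 0.0623.

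The transporter and the immunoproteasome did not follow. Tap1 was at 26.6, 46.0 and 35.6 CPM, below other microglia of the same run in all 3 runs but overlapping them across runs, a log2 change of -0.29 ± 0.26 (SE, edgeR adjusted p = 0.544). Psmb8 was at 211, 233 and 203 CPM, inside or at the edge of the 199 to 231 CPM of other microglia (log2 0.03 ± 0.12, edgeR adjusted p = 0.914). Tap2 (log2 -0.07 ± 0.18) and Tapbp (0.23 ± 0.13) overlapped other microglia too. Psmb9 fell, from 81.9, 75.8 and 71.9 CPM in other microglia to 57.0, 36.1 and 25.4 CPM. The ranges were apart, and the log2 change was -0.79 ± 0.21 (SE, edgeR adjusted p = 0.00249). This call rests on 30, 11 and 5 UMIs in the disease-associated cells. Without run 2 the log2 change of Psmb9 was -0.68 (edgeR adjusted p = 0.0605), with no run block the edgeR adjusted p was 0.0962, and the DESeq2 Wald test gave an adjusted p of 0.0869. Nlrc5 had 3 UMIs in run 1 and 0 in runs 2 and 3.

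The summed interferon markers of the disease-associated cells were at 77.8, 62.4 and 30.5 CPM, against 47.9 to 56.3 CPM in other microglia and 2463 to 2841 CPM in interferon-responsive cells. When only cells with no interferon marker were kept on both sides, an analysis added after the data had been seen, the log2 changes were 0.79 for H2-K1, 0.84 for H2-D1, 0.50 for B2m and -0.78 for Psmb9, and all 4 passed (edgeR adjusted p at most 0.0193). Border-associated macrophage markers summed to 3.28 to 20.3 CPM in the disease-associated cells, with 6 of 8 at 0 in every run, against 4778 to 9015 CPM in those macrophages. The microglial marker sum was lower than in other microglia, at 7325 to 9663 CPM, and the class II sum was higher, at 180 to 259 against 35.8 to 41.6 CPM. The disease-associated cells were deeper, with medians of 5305 to 6880 UMIs against 3423 to 4385 UMIs in other microglia. With the stricter cell filter (at least 2000 UMIs and 1000 genes and at most 5% mitochondrial UMIs) on both sides the log2 changes were 0.74 for H2-K1, 0.73 for H2-D1, 0.38 for B2m and -0.88 for Psmb9, all passing (edgeR adjusted p at most 0.00391).

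Of the 43 further pathway genes, 7 rose and 6 fell in disease-associated microglia (median log2 change -0.01). Over all genes tested, 8.07% rose and 8.23% fell. Here the loading chaperones of the endoplasmic reticulum moved, with 3 of 4 higher. Calreticulin (Calr) was at 1199.9, 1392 and 1815 CPM against 778, 806 and 810.5 CPM in other microglia, a log2 change of 0.88 ± 0.08 (SE, edgeR adjusted p = 1.17e-25). Calnexin (Canx) and the thiol oxidoreductase Pdia3 rose by 0.44 ± 0.10 and 0.54 ± 0.09 on the log2 scale. These chaperones also fold many other glycoproteins. The standard subunit Psmb6 rose (log2 0.72 ± 0.12), from 142, 169 and 133 CPM to 228, 273 and 214 CPM, with no overlap. The activator Psme2 (0.62 ± 0.13), H2-Q4 (1.01 ± 0.30) and H2-Q7 (1.78 ± 0.51) rose as well, and H2-Q7 ranged from 5.70 CPM in run 1 to 50.8 CPM in run 3. H2-T24, Cd1d1, Irf1, Irf2, Ifngr1 and Jak1 fell, with log2 changes from -2.40 to -0.54. With no run block, Psme2 (edgeR adjusted p = 0.109), Pdia3 (0.0824), H2-Q7 (0.103), H2-T24 (0.126), Cd1d1 (0.126), Irf1 (0.113), Irf2 (0.117) and Jak1 (0.179) did not pass. Single runs also decided calls. H2-Q4 (edgeR adjusted p = 0.185) and H2-T24 (0.346) did not pass without run 1. Cd1d1 (0.214), Irf1 (0.399) and Jak1 (0.0742) did not without run 2, and H2-Q7 (0.631), H2-T24 (0.164), Cd1d1 (0.242) and Irf1 (0.0624) did not without run 3.

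A direct test compared the interferon-responsive with the disease-associated cells. Of 4234 genes tested, 874 passed (20.6%), with 11.0% higher and 9.66% lower in interferon-responsive cells. Among the class I genes 8 could be tested, and 3 were higher. Tap1 was 4.19-fold higher (log2 2.07 ± 0.26, SE, edgeR adjusted p = 1.97e-06), Psmb9 3.31-fold (1.73 ± 0.28, edgeR adjusted p = 6.58e-05) and Psmb8 1.63-fold (0.71 ± 0.15, edgeR adjusted p = 0.00162). For each of these the 3 runs of the populations did not overlap. That also held for 24 of the 43 further pathway genes, and the share over all genes was not counted. Psmb8 did not pass with no run block (edgeR adjusted p = 0.0569) or by the DESeq2 Wald test (adjusted p = 0.123).

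H2-K1, H2-D1 and B2m overlapped between the states and did not pass. The log2 differences were 0.33 ± 0.12 (SE, edgeR adjusted p = 0.0572) for H2-K1, 0.11 ± 0.12 (SE, edgeR adjusted p = 0.586) for H2-D1 and 0.10 ± 0.11 (SE, edgeR adjusted p = 0.602) for B2m. H2-K1 passed in 3 of 10 alternatives, without run 3 (log2 0.44, edgeR adjusted p = 0.0381), with the stricter cell filter (0.0477) and without cells that held Xist and Y-linked UMIs (0.0251). The signs of H2-D1 and B2m turned without run 2 (log2 -0.06 and -0.08). Tap2 was 0.66 ± 0.25 higher on the log2 scale without passing (edgeR adjusted p = 0.0583), and passed in 2 of 10 alternatives, without run 3 (log2 0.89, edgeR adjusted p = 0.0300) and with looser gates (0.0183). Among the 27 further pathway genes that could be tested, 9 were higher and 5 lower in interferon-responsive cells, against 11.0% and 9.66% of all genes tested. All 3 tested chaperones were lower, led by Calr at -0.84 ± 0.11 on the log2 scale. The log2 difference was -0.82 ± 0.18 for Psmb6, and Psmb10 (0.97 ± 0.19) and H2-T23 (0.97 ± 0.16) were higher. Without run 1 the edgeR adjusted p was 0.0750 for Psmb6 and 0.0572 for Canx, and the DESeq2 Wald test gave 0.0965 for Psmb10, 0.134 for Psmb6 and 0.0565 for Canx.

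**Figure D3:**
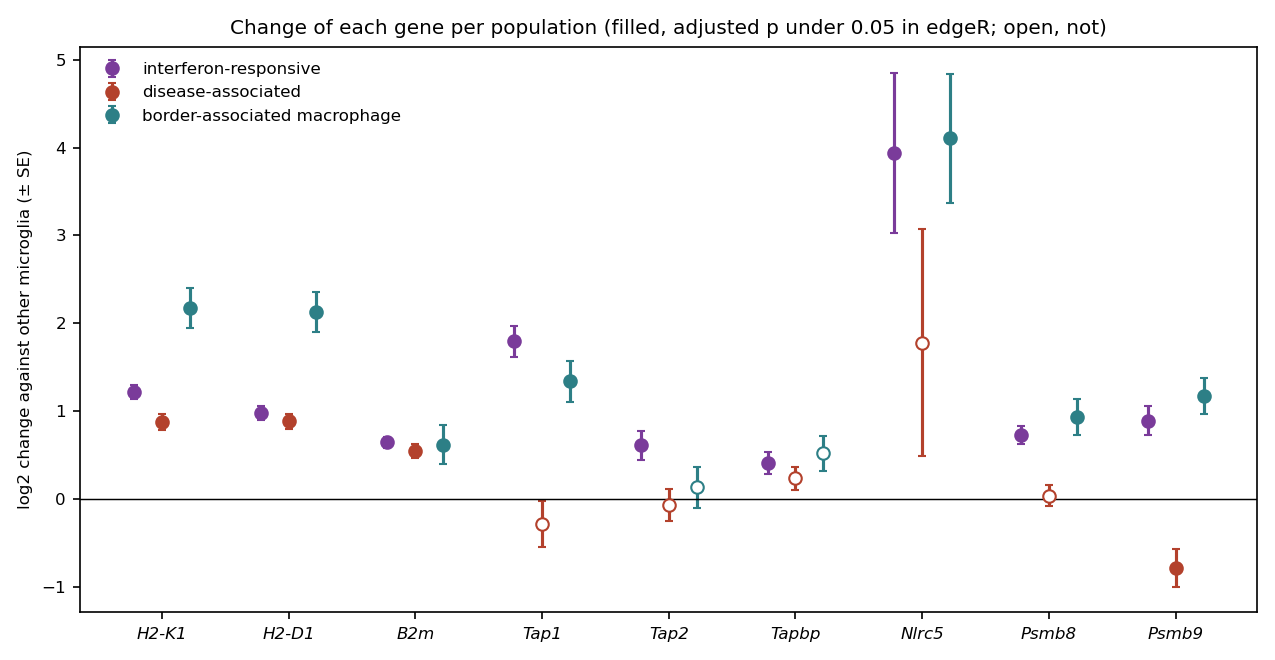
log2 change (vertical axis, ± SE) of each gene in interferon-responsive microglia, disease-associated microglia and border-associated macrophages, each against other microglia. Filled points passed an adjusted p of 0.05 in edgeR and open points did not. The 9 interferon-responsive points are all filled and above 0, while in disease-associated cells only H2-K1, H2-D1 and B2m are filled above 0 and Psmb9 below.

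Since Psmb8, Psmb9 and Psmb10 take the places of Psmb5, Psmb6 and Psmb7 in the assembled proteasome, each was set against its standard partner as a share of the pair's UMIs. Shares of UMIs are not shares of protein, and capture can differ between the genes of a pair, so only the same pair is compared between populations. For Psmb9 the share was 36.5%, 30.9% and 35.2% in other microglia of runs 1, 2 and 3, 50.5%, 58.1% and 45.3% in interferon-responsive cells, and 20%, 11.7% and 10.6% in disease-associated cells. The 3 populations did not overlap in this pair, with means of 34.2% ± 2.92, 51.3% ± 6.42 and 14.1% ± 5.13 (SD, n = 3). No test of the shares was made. For Psmb8 the mean share was 58.5% ± 0.560 in other microglia, 71.2% ± 2.47 in interferon-responsive and 54.8% ± 3.15 in disease-associated cells (SD, n = 3). The interferon-responsive runs were above the other microglia, and the disease-associated run 1 (58.4%) overlapped them. Ccl3/Ccl4-high cells, at 61.9%, 76.3% and 64.7% on 86 Psmb8 UMIs, were also above other microglia and overlapped the interferon-responsive cells. Border-associated macrophages were above other microglia too (mean 74.1% ± 5.21, SD, n = 3). For Psmb10 the means were 64.9% ± 5.83, 75.1% ± 10.9 and 55.7% ± 4.20 (SD, n = 3), and the ranges of neighbouring populations overlapped. Looser marker gates moved the Psmb9 share of disease-associated cells to 22.7%, and stricter gates moved their Psmb8 share to 44.7%.

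**Figure D4:**
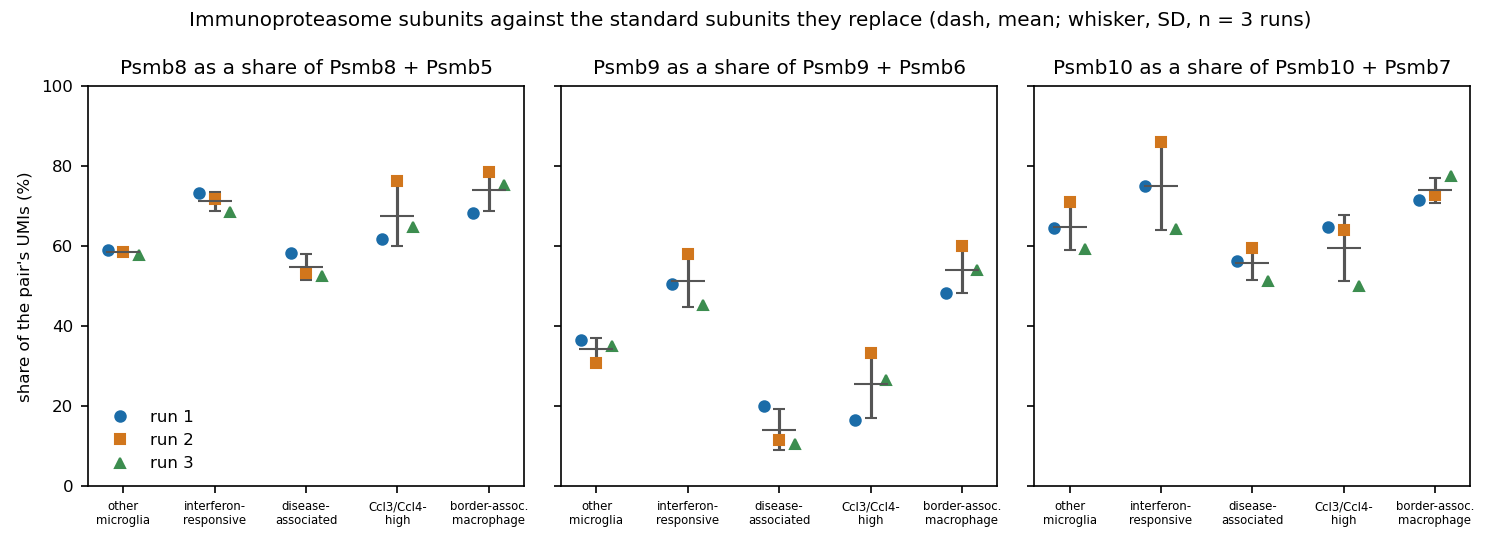
Share of the UMIs of each immunoproteasome and standard subunit pair held by the immunoproteasome subunit (%, axis 0 to 100), in 5 populations. Points are runs, dashes are means and whiskers are the SD over 3 runs. The Psmb9 share is lowest in disease-associated microglia (14.1%) and highest in border-associated macrophages (54.1%).

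Border-associated macrophages held more heavy chain RNA than any of the tested microglial populations, with H2-K1 at 4.52-fold and H2-D1 at 4.36-fold the level of other microglia. Tap1, Nlrc5, Psmb8, Psmb9 and, weakly, B2m were higher too, while Tap2 and Tapbp did not pass. Of 11468 genes tested against other microglia, 1493 passed (13%, with 7.82% higher and 5.20% lower), and 7 of the 9 class I genes were higher. The median log2 change was 1.17 over the 9 genes and -0.11 over all genes. H2-K1 was at 1054, 2627 and 1323 CPM in runs 1, 2 and 3, and H2-D1 at 1335, 2298 and 1633 CPM. Run 2 was by far the highest, and the lowest macrophage run still exceeded every run of the 4 tested microglial populations. The log2 changes were 2.17 ± 0.23 for H2-K1 and 2.12 ± 0.23 for H2-D1 (SE, edgeR adjusted p = 4.69e-20 and 4.43e-19). B2m was only 1.53-fold higher, at 1577, 1487 and 1548 CPM (edgeR adjusted p = 0.0440), and did not pass without run 2 (0.532) or run 3 (0.476), with no run block (0.113) or with no filter on low counts (0.0768). Microglia past several state gates (21, 4 and 10 cells in runs 1, 2 and 3) were set aside and are not among the tested populations. Their mean CPM per cell of H2-K1 was 1590, 2627 and 1779, against 1310, 2403 and 1289 in the macrophages. For H2-D1 it was 2068, 2600 and 1857 against 1656, 2188 and 1632.

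Tap1 was at 67.7, 189 and 81.1 CPM in the macrophages, above the highest run of other microglia (52.5 CPM) in each run, a log2 change of 1.34 ± 0.23 (SE, edgeR adjusted p = 1.82e-07). Psmb8 (log2 0.93 ± 0.20) and Psmb9 (1.17 ± 0.21) were higher in every run, although Psmb8 did not pass without run 2 (edgeR adjusted p = 0.0535). Nlrc5 had 10, 2 and 4 UMIs, which gave 14.1, 12.2 and 14.1 CPM and a log2 change of 4.10 ± 0.74 (SE, edgeR adjusted p = 6.67e-07). Here too it passed the filter on low counts only through the sums of the population where it was higher. Tap2 was at 69.1, 91.4 and 84.6 CPM and overlapped other microglia (log2 0.13 ± 0.23). Tapbp (0.52 ± 0.20, SE, edgeR adjusted p = 0.0776) did not pass but did without run 1 (0.00383). Without run 2 there were 867 genes called and without run 3 there were 599.

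Several other measures moved with the macrophage result. Their interferon markers summed to 568 to 1506 CPM, against 47.9 to 56.3 CPM in other microglia, and all 12 were detected. Their 4 class II markers summed to 9503 to 27338 CPM, highest in run 2. In run 1, 29.2% of these cells held both Xist and Y-linked UMIs, against 2.78% in run 2 and 7.02% in run 3. Without such cells 8 of the 9 genes were higher, Tapbp being added (edgeR adjusted p = 0.0288). Among 43 further pathway genes 14 rose and none fell, against 7.82% higher and 5.20% lower over all genes tested. The 14 included H2-Q7 (log2 4.57 ± 0.28), H2-Q6 (4.07 ± 0.45) and Fcgrt, the heavy chain of the neonatal Fc receptor, which also pairs with B2m (1.97 ± 0.20, from 108, 133 and 119 CPM to 299, 518 and 511 CPM).

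In Ccl3/Ccl4-high microglia H2-K1, H2-D1 and B2m were higher than in other microglia, and none of the other 6 class I genes was called. Of 11103 genes tested, 580 passed (5.22%, with 3.12% higher and 2.11% lower). The median log2 change was 0.00 over the 9 genes and -0.17 over all genes. H2-K1 was at 652, 563 and 511 CPM (log2 0.66 ± 0.14, SE, edgeR adjusted p = 9.84e-05), H2-D1 at 838, 616 and 524 CPM (0.64 ± 0.13, SE, edgeR adjusted p = 7.28e-05) and B2m at 1704, 1359 and 1382 CPM (0.47 ± 0.10, SE, edgeR adjusted p = 0.000174). Run 1 was the highest for all 3 genes, and no run fell inside the range of other microglia. Disease-associated markers moved with this result, at 279 to 390 CPM in Ccl3/Ccl4-high cells against 45.4 to 54.0 CPM in other microglia, and so did class II markers (52.5 to 103 against 35.8 to 41.6 CPM). Disease-associated cells in turn held 477 to 1373 CPM of Ccl3 and Ccl4, against 13.8 to 55.2 CPM in other microglia. Without run 1 neither H2-K1 (edgeR adjusted p = 0.0896) nor H2-D1 (0.142) passed, without run 2 B2m did not (0.0604), and with no run block none of the 3 did (0.132 to 0.219). Tap1 was at 27.9, 37.5 and 30.4 CPM, below the 38.2 to 52.5 CPM of other microglia in every run, but on 13 UMIs the log2 change of -0.38 ± 0.42 did not pass (SE, edgeR adjusted p = 0.761). The 8 immediate early markers, which rise within minutes of stimulation and with tissue handling, summed to 2282 to 3713 CPM in these cells and to 130, 233 and 1646 CPM in other microglia of runs 1, 2 and 3. The part of these 3 marker lists in the result was not tested. Scaling by DESeq2's size factors changed the split of all called genes from 346 higher and 234 lower to 411 and 177, and the same 3 class I genes were called.

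Other microglia were also divided by sex-linked transcripts, since both sexes were pooled. Cells with at least 2 Xist UMIs and no Y-linked UMI were compared with cells holding a Y-linked UMI and no Xist. Of 11277 genes tested, 58 passed (0.514%, with 0.239% higher in the Xist cells and 0.275% lower; 1099 genes had an unadjusted p under 0.05), and none of the 8 class I genes tested was called, with 1 at an unadjusted p under 0.05 and none by DESeq2. Tap1 was at 41.6, 56.1 and 41.4 CPM in the Xist cells of runs 1, 2 and 3 against 33.7, 46.3 and 40.1 CPM in the Y cells, which overlap (log2 0.22 ± 0.07, SE, edgeR adjusted p = 0.261). The other 7 log2 differences lay between -0.06 and 0.06. H2-D1 was called lower in the Xist cells only when run 1 was left out (log2 -0.17, edgeR adjusted p = 0.0494).

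Ordered by the mean of the runs, H2-K1 went from other microglia (378 ± 55.1 CPM, SD, n = 3) over Ccl3/Ccl4-high (575 ± 71.1), disease-associated (691 ± 158) and interferon-responsive cells (869.5 ± 126) to border-associated macrophages (1668 ± 841). Only the neighbours at both ends did not overlap. For Tap1 the order was Ccl3/Ccl4-high (32.0 ± 4.98 CPM, SD, n = 3), disease-associated (36.0 ± 9.70), other microglia (43.5 ± 7.80), border-associated macrophages (113 ± 66.5) and interferon-responsive cells (152 ± 29.8). Other microglia and border-associated macrophages were the only neighbours apart. The 5 genes whose pattern over these 5 populations was most like the mean of the 9 were Slfn2, Bst2, Ifitm3, Zbp1 and H2-T23, with Pearson correlations of 0.999, 0.996, 0.995, 0.989 and 0.981 among 6118 genes ranked. The 5 points come from the same 3 libraries, so this is a description. Bst2 went from 153 CPM in other microglia to 758 CPM in interferon-responsive cells and 916 CPM in macrophages, and Zbp1 from 0.967 to 71.9 and 70.4 CPM.

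Read sharing between near-identical genes could affect the heavy chains. Of the 50-base windows of the longest coding transcript, 8.79% of H2-K1 and 14.3% of H2-D1 occur in transcripts of another gene, most often H2-D1 for H2-K1 and H2-Q1 for H2-D1. In the last 500 bases, 0.443% of the windows of H2-K1 and 9.53% of those of H2-D1 were shared. B2m, Psmb8, Psmb9 and Nlrc5 shared none, and Tap1, Tap2 and Tapbp at most 2.00%. How the counting handled shared reads is not given in the sources used here, so splits among H2-D1, H2-Q and H2-K1 are uncertain to that extent.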

How the data were processed

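The authors deposited gene-by-barcode tables of raw UMI counts, in which the counting software is version 3.0.2 for run 1 and 3.1.0 for runs 2 and 3, per the file headers. Cell Ranger, Seurat 4.0 and mm10 are named in the submitters' processing notes, without their roles. Brains were perfused, hippocampi dissected, myelin removed on magnetic columns and viable cells enriched by flow cytometry, per the labels' protocols. How barcodes were selected is not given in the sources used here. No authors' cell annotation was used.

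Cells were kept with at least 1000 UMIs, 500 genes and at most 10% mitochondrial UMIs. Each was assigned by counting detected markers, and cells past several gates were set aside (20 for lineages, 35 for states). The disease-associated gate used 9 of its 10 listed markers, and the other was not analysed here. No doublet caller was run. Cells with UMIs of Xist and also of Y-linked genes (1.68% to 3.39% of a run) served as a check, and both sexes are needed for it. Just under the gates lay 49, 32 and 26 microglia with 3 interferon markers and 119, 106 and 87 with 2 disease-associated markers in runs 1, 2 and 3.

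Counts were summed per run and population where every run held at least 20 cells, and tested over all genes with edgeR 4.0.16 (R 4.3.3; glmQLFit and glmQLFTest, TMM, filterByExpr), blocking on the run, at a Benjamini-Hochberg adjusted p of 0.05. Both sums of a run come from 1 library, and what they deviated by from the means of their populations correlated at 0.254 to 0.935 in every run and comparison, so the runs pair the samples. Genes mostly shared a single estimate of spread, so a small p-value does not show that the runs of a gene were alike. CPM were computed from the summed counts, the log2 ratio of a run was taken after adding 1 CPM, and SE is the log2 change over the root of F. On simulated counts with known changes, 96.6% of 2-fold changes were recovered for interferon-responsive cells (6.67% false calls among all calls), 98.1% for disease-associated cells (3.88%) and 70.1% for border-associated macrophages (3.37%). The simulation gave all genes the same spread and the runs the same expression. It changed only genes above a minimum level that Tap1 and Nlrc5 did not reach in other microglia. The recovered shares therefore do not give the power for those genes or for runs that differ.

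Alternatives were DESeq2 size factors, the DESeq2 1.42.0 Wald test, no low-count filter, no run block, leaving out each run, stricter cell filters (2000 UMIs, 1000 genes, 5% mitochondrial), gates 1 marker stricter or looser, gates on cells thinned to 2000 UMIs, and removal of cells with Xist and Y-linked UMIs. Cells without interferon or disease-associated markers were added as alternatives after the data had been seen. Gene IDs were matched to GENCODE M21 (GRCm38) for 31011 of 31053 genes, promoters to RefSeq for 7 of the 9 genes. The 9 genes are all named in every comparison. Further pathway genes (43 of 44 listed were in the files) are given as counts, with values for those past the threshold and a log2 change of at least 0.5, and Canx, Ifngr1 and, in interferon-responsive cells, Calr were named outside that rule after their values were seen. The values of 1 listed pathway gene are not reported here. The members and lists were chosen with earlier results of these data known. Poisson errors cover counting only, and simulated errors cover counting and a spread shared by all genes.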

Additional observations from a re-analysis of the deposited data

How the results depend on the processing

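With no replicate block by run, the genes called were 142 for interferon-responsive cells (with 5 of 9 class I genes higher), 615 for disease-associated (0 class I genes lower), 428 between these states, 172 for Ccl3/Ccl4-high (0 class I genes higher), 825 for border-associated macrophages and 5 for the sex-linked split. The DESeq2 Wald test called 1037 for disease-associated (0 class I genes lower), 259 between the states, 359 for Ccl3/Ccl4-high and 19 for the sex-linked split, where no low-count filter gave 138. Leaving out a run gave 161 to 212 genes for interferon-responsive cells, 1189 to 1326 for disease-associated (0 to 1 class I genes lower), 416 to 656 between the states (3 to 5 class I genes higher), 274 to 432 for Ccl3/Ccl4-high (1 to 3 higher), 599 to 1626 for macrophages and 46 to 146 for the sex-linked split (0 to 1 lower). Signs turned for uncalled changes alone. The log2 change of Psmb8 in disease-associated cells was -0.0099 with no filter, -0.0267 with stricter cells and -0.0775 without interferon markers. In Ccl3/Ccl4-high cells it was -0.0220 without cells holding Xist and Y-linked UMIs. Over the fits that left out a run, the log2 changes ranged from -0.191 to 0.0356 for Tap2 in disease-associated cells, from -0.0623 to 0.206 for H2-D1 and from -0.0808 to 0.282 for B2m between the states, and from -0.488 to 0.12 for Tapbp and from -0.32 to 0.250 for Psmb8 in Ccl3/Ccl4-high cells. Stricter and looser gates gave Psmb8 shares of 76.0% and 68.2% in interferon-responsive cells. In disease-associated cells stricter gates gave a Psmb8 share of 44.7%, and looser gates gave 22.7% for Psmb9 and 60.5% for Psmb10. The causes were not tested. Mean CPM per cell in place of summed counts left 45 of 45 levels within 1 SD, in the populations with at least 20 cells in every run.

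Thinned gates (all but Ccl3/Ccl4-high and the sex-linked split), stricter gates (disease-associated, between the states, Ccl3/Ccl4-high), stricter cells (Ccl3/Ccl4-high) and cells without interferon or disease-associated markers (Ccl3/Ccl4-high, macrophages) left under 20 cells in a run and were not run. Depth limits Nlrc5, with 115 UMIs in all cells, and Psmb9 and Tap1 in the small populations.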

Other observations

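Populations too small for a test were summed over runs, with 95% Poisson intervals that cover counting error only. The 50 class II-high microglia held 1112 CPM of H2-K1 (993 to 1241), 1403 CPM of H2-D1 (1269 to 1547) and 396 CPM of Psmb8 (327 to 476). H2-K1 was at 1069.7, 1149 and 1121 CPM in runs 1, 2 and 3, above the 333 to 439 CPM of other microglia in each run. The 32 class II-high cells outside the microglial gate reached 1939 CPM of H2-K1 (1763 to 2128), 885 CPM of Psmb8 (767 to 1015) and 349 CPM of Psmb9 (276 to 434). Summing gives deep cells more weight. The mean CPM per cell of Psmb8 was lower there, at 437, 669 and 693 in runs 1, 2 and 3, and outside that interval. The 60 cycling microglia held 105 CPM of Tap1 (76.6 to 142), and their runs, at 104, 145 and 82.5 CPM, were above the 38.2 to 52.5 CPM of other microglia. Their H2-K1 was at 454, 434 and 206 CPM and overlapped other microglia. In the 11 T/NK cells H2-K1 was at 2436 CPM (2039 to 2887), H2-Q7 at 897 CPM (664 to 1186) and Nlrc5, with 3 UMIs, at 54.9 CPM (11.3 to 161). The 37 choroid plexus epithelial cells held 382 CPM of B2m (276 to 514), but their runs, at 694, 74.4 and 362 CPM on 37, 4 and 2 UMIs, differed more than that interval covers. H2-K1 was at 413, 37.2 and 0 CPM there, and microglial markers ranged from 181 to 6450 CPM. The part of microglial RNA in these counts was not tested. The 89 cells past the astrocyte gate, whose microglial markers summed to 13966 to 17006 CPM, held 277 CPM of H2-K1 (231 to 329) and 1096 CPM of B2m (1003 to 1196).

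Run 2 stood apart from runs 1 and 3 in some class I genes in each of the 5 populations compared. H2-T23 was at 97.9 CPM in the other microglia of run 2 against 187 and 193 CPM in runs 1 and 3. It was also lowest in run 2 in interferon-responsive cells (237 against 357 and 435 CPM), disease-associated cells (112 against 192 and 198 CPM), Ccl3/Ccl4-high cells (82.6 against 168 and 128 CPM) and border-associated macrophages (226 against 314 and 367 CPM). H2-K1 was highest in run 2 in all of these but the Ccl3/Ccl4-high cells, with 439 against 333 and 360.3 CPM in other microglia. The split of other microglia by sex-linked transcripts differed as well. Run 1 held 2577 Xist cells and 2247 Y cells, and run 2 held 3408 and 1300. The part of the animals in these differences was not tested. The strain background and MHC haplotype of the animals in each run are not given in the sources used here.

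By disease-associated markers, in microglia thinned to 2000 UMIs, Psmb9 was at 79.6 ± 3.90, 68.0 ± 5.44 and 51.5 ± 28.3 CPM (SD, n = 3 runs) with 0, 1 and 2 of 9 markers, in 17302, 1384 and 156 cells. H2-K1 was at 381, 473 and 779.7 CPM in the same cells. With 3 and 4 or more markers, in 36 and 10 cells, Psmb9 had 2 and 0 UMIs. H2-K1 was there at 575 ± 285 and 1217 ± 801 CPM (SD, n = 3 runs) on 38 and 18 UMIs, so its rise was not steady.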
